A study of Mus musculus with 12 samples.

Results

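The mitochondrial ribosomal protein genes are the nuclear genes whose symbols begin with Mrpl or Mrps and that encode the proteins of the mitochondrial ribosome. They were taken by name: a row was kept where its gene name, or 1 of the names joined on the row, was Mrpl or Mrps followed by a number and at most a letter a, b or c. This rule used no measured value. It found 76 genes among the 24138 rows of each deposited table, and all 76 had been tested by the authors in all 4 comparisons. By their current protein names 49 of them belong to the large subunit and 26 to the small subunit, with Mrps30 and Mrps18a counted in the large one. The remaining gene, Mrps36, is now assigned to the alpha-ketoglutarate dehydrogenase complex. The rule matches 78 gene symbols in RefSeq, of which Mrpl58 stands in the files under its older name Ict1, and Mrpl53 was not analysed here.

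Mitochondria keep a small genome of their own, and the mitochondrial ribosome translates its messages into core subunits of the respiratory chain and the ATP synthase. The ribosomal RNAs come from the mitochondrial genome, but every protein of this ribosome is made in the cytosol from a nuclear gene and imported. Part of the proteins have counterparts in bacterial ribosomes, and the others are specific to mitochondria.

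RNA had been sequenced from cells of the intra-aortic haematopoietic clusters, which bud from the wall of the embryonic aorta and give rise to blood stem and progenitor cells. The cells came from the aorta-gonad-mesonephros region (AGM) of C57BL/6 embryos and were sorted as negative for SSEA-1 and positive for CD31 and CD117. The 4 groups of 3 samples were S/G2/M cells of E11.5 Fucci Green embryos sorted for mAG, G1 cells of E11.5 Fucci Red embryos sorted for mKO2, S/G2/M cells of E10.5 Fucci Green embryos and G1 cells of E10.5 Fucci Red embryos. Ages are in days of gestation. The Fucci reporters are fluorescent proteins fused to parts of cell cycle regulators that are degraded in different phases, so mKO2 marks G1 and mAG marks S, G2 and M. Every G1 sample thus carried one reporter and every S/G2/M sample the other, and phase and reporter strain cannot be told apart. No label ties the 3 samples of a group to separate litters or embryos, so the p-values and q-values below cover no more than the scatter of these samples, which could be technical.

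The authors deposited 1 FPKM value (fragments per kilobase of transcript, scaled to the number of mapped fragments) per gene and group, so every level below is a group value over 3 samples with no spread. All 12 markers of the cluster cells fixed for the check, such as Kit, Pecam1 and Runx1, were above 0 in every group. Some were low, such as Gfi1 with 0.25 FPKM and Itga2b with 1.69 FPKM in E11.5 G1 cells. All 20 mitosis genes were higher in S/G2/M than in G1 cells at both ages. Markers of other cells were also present. The 15 macrophage markers summed to 756 FPKM in E11.5 S/G2/M cells and 2570 FPKM in E11.5 G1 cells, and to 228 FPKM in E10.5 S/G2/M cells and 374 FPKM in E10.5 G1 cells. The 12 neuronal markers summed to 98.3 FPKM in E11.5 S/G2/M, 174 FPKM in E11.5 G1, 80.4 FPKM in E10.5 S/G2/M and 675 FPKM in E10.5 G1 cells. The 14 mesenchymal markers summed to 115 FPKM in E11.5 S/G2/M, 136 FPKM in E11.5 G1, 553 FPKM in E10.5 S/G2/M and 1000 FPKM in E10.5 G1 cells. The neuronal sum was thus highest in E10.5 G1 cells and the macrophage sum in E11.5 G1 cells. Crabp1 alone made up 268 FPKM of the mesenchymal sum in E10.5 S/G2/M cells and 730 FPKM in E10.5 G1 cells, and 6 of the 14 mesenchymal markers were higher in S/G2/M cells at E10.5. None of these markers was listed at 0 in any group. In sorted bulk samples fewer cells of a type and less RNA per cell cannot be told apart.

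FPKM is a level per length, and on that ground levels are set side by side between genes here. Of the member loci, 19 overlap another coding gene. The part of such overlaps and of transcript length in the levels was not tested. The 76 genes had a median of 31.1 FPKM in E11.5 S/G2/M cells, 25.1 FPKM in E11.5 G1 cells, 31.5 FPKM in E10.5 S/G2/M cells and 26.0 FPKM in E10.5 G1 cells. The medians of all genes tested were 8.92 FPKM in E11.5 S/G2/M, 9.28 FPKM in E11.5 G1, 8.15 FPKM in E10.5 S/G2/M and 8.45 FPKM in E10.5 G1 cells. Between 71 and 75 of the 76 lay above the median of all genes, so nearly the whole set stood above the typical gene in every group. Of the summed FPKM of all tested genes they made up 0.635% in E11.5 S/G2/M, 0.555% in E11.5 G1, 0.594% in E10.5 S/G2/M and 0.587% in E10.5 G1 cells. Large and small subunit genes had like medians: 30.5 and 33.5 FPKM in E11.5 S/G2/M cells, 25.1 and 25.1 FPKM in E11.5 G1 cells, 32.2 and 30.2 FPKM in E10.5 S/G2/M cells, and 24.9 and 27.1 FPKM in E10.5 G1 cells.

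By FPKM the genes were far from equal among themselves although their proteins occupy the same particle. Mrps21, a small subunit protein with a bacterial counterpart, was the highest in every group, at 213 FPKM in E11.5 S/G2/M, 269 FPKM in E11.5 G1, 271 FPKM in E10.5 S/G2/M and 302 FPKM in E10.5 G1 cells. Mrpl1, the protein of the mobile stalk beside the exit site for transfer RNA, was the lowest in every group, at 6.90 FPKM in E11.5 S/G2/M, 3.96 FPKM in E11.5 G1, 6.90 FPKM in E10.5 S/G2/M and 5.43 FPKM in E10.5 G1 cells. The highest gene was 30.9-fold to 67.8-fold above the lowest within a group. Between 64 and 68 of the 76 lay between 10 and 100 FPKM. After Mrps21 the highest mean levels over the 4 groups were those of Mrpl52 (188 FPKM), Mrpl42 (163 FPKM), Mrpl30 (138 FPKM), Mrpl18 (128 FPKM) and Mrpl33 (114 FPKM), all large subunit genes. Above Mrpl1, the lowest were Mrpl35 (9.74 FPKM), Mrpl45 (10.8 FPKM) and Mrpl19 (10.995 FPKM). Mrpl45 is the protein that holds the ribosome at the inner membrane. The order of the genes was much alike from group to group, with Spearman's rho between 0.875 and 0.929 over 76 genes for the 6 pairs of groups. Those genes share libraries and transcript lengths, and rho is given as a description.

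**Figure D1:**
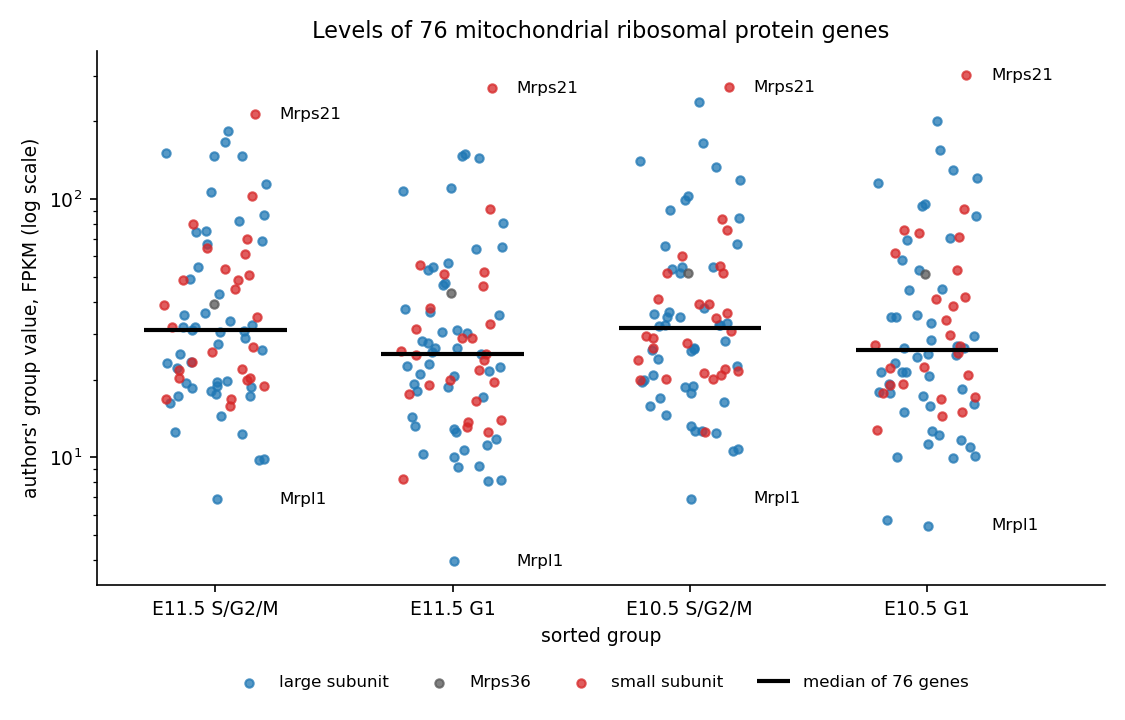
Levels of the 76 mitochondrial ribosomal protein genes in the 4 sorted groups, as the authors' group values in FPKM on a log axis. Each point is a gene, coloured by subunit, and the black bar is the median (31.1 and 25.1 FPKM in S/G2/M and G1 cells at E11.5, 31.5 and 26.0 FPKM at E10.5). Mrps21 stands at the top and Mrpl1 at the bottom of every group.

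The genes are scattered over 17 chromosomes, with 10 on chromosome 11 and 8 on chromosome 17. At 19 of the 76 (25%) another protein-coding gene starts on the other strand within 1000 bases, head to head with the member. The same holds for 7.23% of all 21951 coding genes in GENCODE. RefSeq (GRCm38.p6) gives a promoter window, from 250 bases before to 50 bases after the start, for 67 of the 76. The ratio of observed to expected CpG had a median of 0.818 in these windows and 0.576 in 17491 windows of coding genes. It was above 0.6 in 92.5% of the members' windows and in 48.3% of all coding windows.

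Short motifs were searched on both strands of the windows. The ETS motif CCGGAAG, read by factors such as GABPA, was in 23 of 67 windows (34.3%), against 11.9% of all coding windows. The motif of NRF1, an activator of nuclear genes for mitochondrial proteins, was searched as GCGCA followed, after 1 free base, by GCGC, and was in 13 windows (19.4%), against 6.60%. Its strict form, with T as the free base, is a subset of it and was in 3 windows (4.48%), against 1.32%. The YY1 motif AAGATGGC was in 12 windows (17.9%), against 3.22%. Thus 3 motifs known from nuclear genes for mitochondrial proteins stood in the members' windows at more than their share in all windows. The E-box CACGTG was in 5 windows (7.46%), against 7.90%, and CCAAT was in 26 (38.8%), against 39.0%. TATAAA was in 4 windows (5.97%), against 13.3%. CpG content differs between the members' windows and all coding windows, and its part in these shares was not tested, nor were the shares themselves. A match is a run of letters and no evidence of binding.

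**Figure D2:**
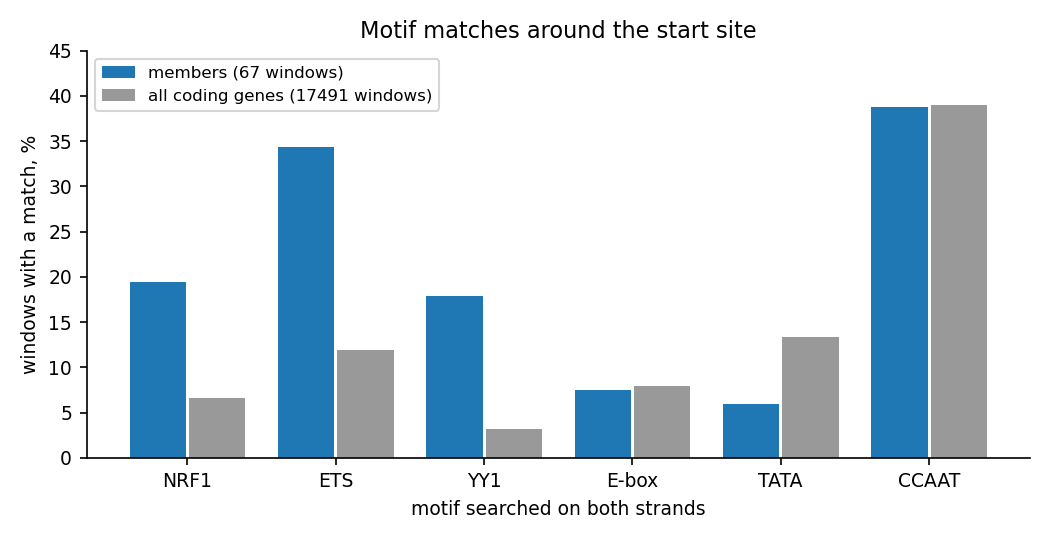
Share of promoter windows with at least 1 match to each motif, in percent, for 67 windows of mitochondrial ribosomal protein genes (blue) and 17491 windows of all coding genes (grey). NRF1 is the form with a free base. NRF1, ETS and YY1 matches were more frequent in the members' windows (19.4%, 34.3% and 17.9%) and TATAAA less frequent (5.97%).

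The windows of 4 genes follow, 5′ to 3′ on the strand of the gene, in lower case with motif matches in capitals. Mrpl12, Mrps12 and Mrps26 carry the largest or the most repeated phase differences described further on. Mrps11 shares its start region with Mrpl46. The windows of Mrpl46 and Mrps18b were also searched and are not printed. That of Mrpl46 holds no match, and that of Mrps18b holds 1 ETS match on the opposite strand. In Mrpl12 (chr11:120484387-120484686, plus strand) the capitals mark 1 NRF1 match, which stands on the opposite strand. In Mrps12 (chr7:28741772-28742071, minus strand) they mark a YY1 match on the opposite strand and then an ETS match. In Mrps26 (chr2:130563507-130563806, plus strand) they mark an ETS match on the opposite strand and then 2 overlapping NRF1 matches at the start itself. In Mrps11 (chr7:78782881-78783180, plus strand) they mark 1 YY1 match on the opposite strand.
Mrpl12: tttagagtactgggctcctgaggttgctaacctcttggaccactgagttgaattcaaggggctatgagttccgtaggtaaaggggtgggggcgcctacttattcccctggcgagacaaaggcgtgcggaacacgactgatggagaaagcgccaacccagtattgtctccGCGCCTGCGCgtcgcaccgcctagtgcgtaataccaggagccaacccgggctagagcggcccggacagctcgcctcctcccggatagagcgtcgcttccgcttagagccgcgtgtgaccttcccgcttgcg
Mrps12: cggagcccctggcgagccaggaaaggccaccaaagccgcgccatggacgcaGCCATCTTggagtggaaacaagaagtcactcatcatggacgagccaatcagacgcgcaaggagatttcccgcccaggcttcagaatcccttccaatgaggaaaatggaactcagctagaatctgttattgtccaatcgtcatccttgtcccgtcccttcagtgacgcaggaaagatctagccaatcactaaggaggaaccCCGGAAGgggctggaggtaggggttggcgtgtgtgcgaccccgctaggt
Mrps26: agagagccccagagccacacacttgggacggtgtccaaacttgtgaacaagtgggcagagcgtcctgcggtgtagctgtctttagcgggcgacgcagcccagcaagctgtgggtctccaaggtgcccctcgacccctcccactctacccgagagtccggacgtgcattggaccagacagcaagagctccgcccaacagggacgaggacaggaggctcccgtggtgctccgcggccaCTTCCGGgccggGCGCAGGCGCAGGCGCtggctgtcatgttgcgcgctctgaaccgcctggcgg
Mrps11: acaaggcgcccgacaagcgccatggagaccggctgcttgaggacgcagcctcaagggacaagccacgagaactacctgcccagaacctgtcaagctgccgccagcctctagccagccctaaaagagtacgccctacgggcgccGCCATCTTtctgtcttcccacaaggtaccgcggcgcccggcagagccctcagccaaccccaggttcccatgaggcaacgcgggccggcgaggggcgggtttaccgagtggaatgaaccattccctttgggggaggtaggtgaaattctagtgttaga
None of the 4 windows holds the strict form of the NRF1 motif.

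The phases were compared first at E11.5, to ask which genes differ with the cell cycle state of cluster cells. Most members were higher in S/G2/M cells: 58 of 76 were higher and 18 lower, and the median log2 fold change of S/G2/M over G1 was 0.40, with quartiles of 0.02 and 0.68. Among all 12414 genes tested 46% were higher and the median was -0.06. The summed level of the 76 was 3586 FPKM in S/G2/M cells and 2882 FPKM in G1 cells, or 0.635% and 0.555% of the summed FPKM of all genes tested. No member passed the threshold of 0.05 on the q-value, against 0.701% of all genes tested in the authors' deposited table, and 2 members had an unadjusted p under 0.05, where the background was 8.27%. The median was thus above that of all genes while no single member met the threshold.

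At E11.5 the largest difference was that of Mrps26, a mitochondria-specific small subunit protein on chromosome 2 (130563757 to 130565394, mm10). It had 48.7 FPKM in S/G2/M cells and 16.5 FPKM in G1 cells, a 2.95-fold difference with p = 0.0121 and q = 0.353 in the authors' deposited table. Mrpl55, a large subunit protein of the central protuberance, had 18.8 FPKM in S/G2/M and 8.11 FPKM in G1 cells (log2 1.21). Neither gene passed. Mrpl47, at the peptide exit tunnel, had 27.4 FPKM in S/G2/M and 12.6 FPKM in G1 cells, with p = 0.04895 and q = 0.5999 in the authors' deposited table. Mrps28, a small subunit protein, had 79.8 FPKM in S/G2/M and 37.9 FPKM in G1 cells (log2 1.07). On the other side the differences were smaller. Mrpl46, another protein of the central protuberance, had 23.2 FPKM in S/G2/M and 37.7 FPKM in G1 cells (log2 -0.70). Mrps35 had 21.8 FPKM in S/G2/M and 31.3 FPKM in G1 cells (log2 -0.52), and Mrpl49 had 16.2 FPKM in S/G2/M and 22.5 FPKM in G1 cells (log2 -0.47). The locus given for Mrpl49 also covers Syvn1. Mrps21, the most abundant member, had 213 FPKM in S/G2/M and 269 FPKM in G1 cells (log2 -0.33).

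At E10.5 the same comparison gave a smaller median. Of the 76 genes 52 were higher in S/G2/M cells and 24 lower, with a median log2 fold change of 0.12 and quartiles of -0.05 and 0.39. Among all 12984 genes tested 47.1% were higher and the median was -0.04. The summed level was 3516 FPKM in S/G2/M cells and 3276 FPKM in G1 cells. As shares of the summed FPKM of all genes tested these are 0.594% and 0.587%, nearly the same. Again no member passed, against 0.655% of all genes tested in the authors' deposited table, and 2 members had an unadjusted p under 0.05 against a background of 6.69%.

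Those 2 genes were Mrpl12 and Mrpl41. Mrpl12 encodes the flexible stalk protein that recruits translation factors, and it is also reported to bind the mitochondrial RNA polymerase. It lies on chromosome 11 (120484669 to 120488754, mm10) and had 67.0 FPKM in S/G2/M and 29.4 FPKM in G1 cells, a 2.28-fold difference with p = 0.0104 and q = 0.431 in the authors' deposited table. Mrpl41, a mitochondria-specific large subunit protein, had 15.7 FPKM in S/G2/M and 5.70 FPKM in G1 cells, with p = 0.0346 and q = 0.658 in the authors' deposited table. The locus given for Mrpl41 also covers Dph7, so its value may hold reads of that gene. Mrps12, a protein of the decoding centre, had 51.7 FPKM in S/G2/M and 27.04 FPKM in G1 cells (log2 0.94). Mrpl22, in the wall of the exit tunnel, had 36.7 FPKM in S/G2/M and 21.5 FPKM in G1 cells (log2 0.77). Lower in S/G2/M cells were Mrps16 with 41.1 FPKM in S/G2/M and 62.0 FPKM in G1 cells (log2 -0.59), and Mrpl36 with 54.6 FPKM in S/G2/M and 70.6 FPKM in G1 cells (log2 -0.37). Human mutations of MRPS16 cause a deficiency of oxidative phosphorylation.

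The depth behind these values is unknown, and the folds that passed the authors' test are given here as observed values, not as limits of detection. Among genes with a mean of 18.6 to 51.9 FPKM, which spans the middle 50% of the members, the smallest fold that passed was 2.76 between phases at E11.5 and 2.26 at E10.5. Mrps26 exceeded the first, and Mrpl41 and Mrpl12 the second, without passing. The mean level of Mrpl41 lay below that band. All other members differed by less than those folds. The members' median log2 fold changes were 0.40 at E11.5 and 0.12 at E10.5, against 0.00 at E11.5 and -0.01 at E10.5 for all genes in that band of levels.

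The 2 phase comparisons share no sample, so their directions can be set side by side. Of the 76 genes 43 were higher in S/G2/M cells at both ages and 9 were lower at both. At E11.5 alone 15 were higher, and at E10.5 alone 9 were higher. The 43 are 56.6% of the members, against 27.3% of the 11818 genes tested at both ages. The shares higher at each age, multiplied, give 52.2% for the members and 22.3% for those genes. Most of the members' overlap thus follows from their counts at each age. Within the set the sizes at both ages were weakly related, with Spearman's rho of 0.23 over 76 members and 0.25 over all genes tested at both ages, given as a description.

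The most repeated differences were those of Mrpl12 and Mrps12. Mrpl12 had 68.5 FPKM in S/G2/M and 35.5 FPKM in G1 cells at E11.5, close to its levels at E10.5. Its log2 fold change was 0.95 at E11.5 and 1.19 at E10.5, with an unadjusted p of 0.0509 at E11.5 in the authors' deposited table of that age. The authors also deposited the phase tables in the other order, and there Mrpl12 had p = 0.04745 and Mrpl47 p = 0.06015 at E11.5, so these 2 changed sides of 0.05 in the authors' deposited tables without passing on q. Mrps12 had 51.0 FPKM in S/G2/M and 25.1 FPKM in G1 cells at E11.5, a log2 fold change of 1.02 against 0.94 at E10.5. In both genes each S/G2/M value was above both G1 values. Mrps30 followed, with 19.3 and 10.3 FPKM in S/G2/M and G1 cells at E11.5 and 17.01 and 10.1 FPKM at E10.5. Mrps18b had 32.0 and 17.6 FPKM in S/G2/M and G1 cells at E11.5 and 29.5 and 17.8 FPKM at E10.5. Ranked by the smaller of their 2 log2 fold changes, these 4 genes came first among the 76, so they were picked on these same values. Mrps12, Mrps30 and Mrps18b were not among the members counted above with an unadjusted p under 0.05 at either age.

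Other members went opposite ways at the 2 ages. Mrps26 was 2.95-fold higher in S/G2/M cells at E11.5 but had 20.1 FPKM in S/G2/M and 29.8 FPKM in G1 cells at E10.5 (log2 -0.57). Mrps28 had 51.8 FPKM in S/G2/M and 76.1 FPKM in G1 cells at E10.5 (log2 -0.56), against 1.07 on the log2 scale at E11.5. Both were among the 4 members with the largest positive values at E11.5 and among the 4 with the largest negative values at E10.5. Mrpl41 had 12.5 FPKM in S/G2/M and 14.4 FPKM in G1 cells at E11.5 (log2 -0.20). Mrps35 had 29.1 FPKM in S/G2/M and 19.1 FPKM in G1 cells at E10.5 (log2 0.60). The difference between the ages was not tested, since no values of single samples were used.

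**Figure D3:**
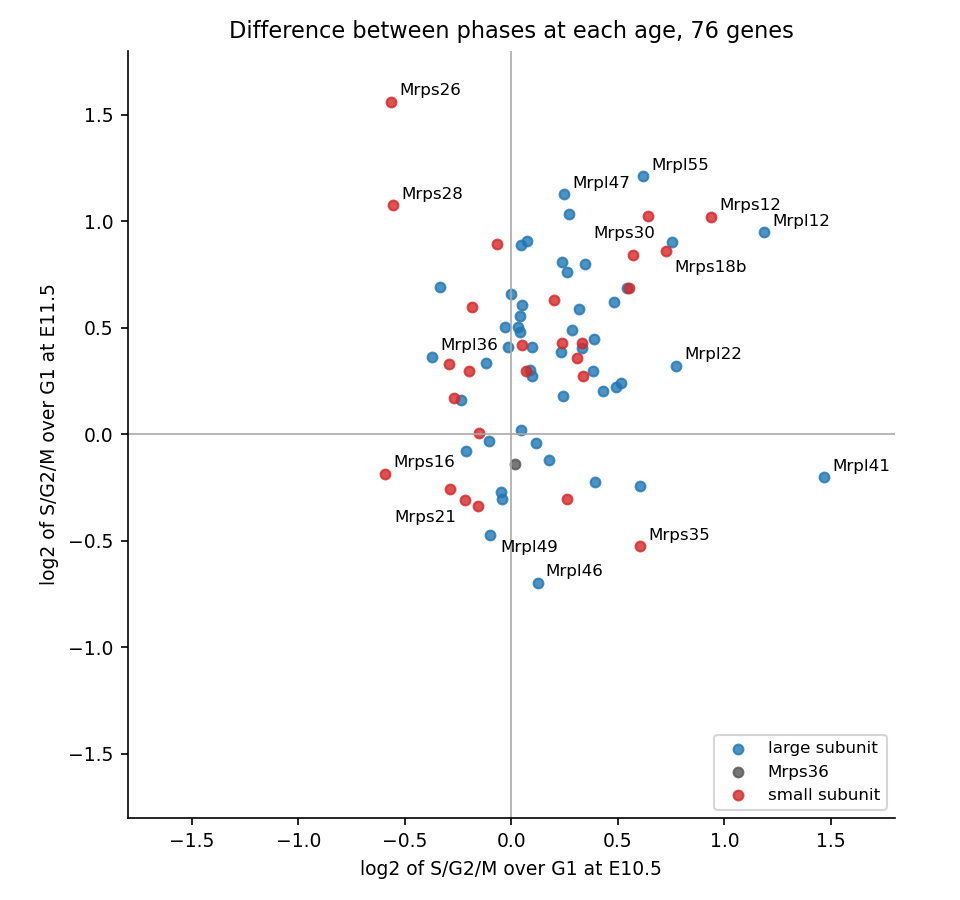
Log2 fold change of S/G2/M over G1 at E10.5 (horizontal) and at E11.5 (vertical) for 76 genes, each a point coloured by subunit. The upper right quadrant holds the 43 genes higher in S/G2/M cells at both ages, with Mrpl12 and Mrps12 farthest out, and Mrps26 and Mrps28 lie at the upper left.

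Markers of other cells also differed between the phases. At E11.5 all 15 macrophage markers were lower in S/G2/M cells and 7 of them fell, such as C1qa, a complement component, with 17.5 FPKM in S/G2/M and 106 FPKM in G1 cells, and Cd68, a lysosomal protein, with 39.9 FPKM in S/G2/M and 186 FPKM in G1 cells. Of the 12 neuronal markers 10 were lower in S/G2/M cells at E11.5, and 1 of them fell, Ncan, with 1.43 FPKM in S/G2/M and 8.37 FPKM in G1 cells. At E10.5 none of the macrophage markers passed, with 3 at an unadjusted p under 0.05, and 9 of 12 neuronal markers fell, such as Sst with 4.84 FPKM in S/G2/M and 148 FPKM in G1 cells. Of the mesenchymal markers Crabp1 fell at E10.5. The part of these cells in the members' differences was not tested.

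By role, 22 of the 30 large subunit genes whose proteins have a bacterial counterpart were higher in S/G2/M cells at both ages and none was lower at both. At E11.5 28 of the 30 were higher in S/G2/M cells (median log2 0.47) and at E10.5 24 (median 0.26). The 19 mitochondria-specific large subunit genes were more mixed, with 10 higher at E11.5 (median 0.16), 13 higher at E10.5 (median 0.09), 9 higher at both and 5 lower at both. The 16 small subunit genes with a bacterial counterpart had 11 higher at E11.5 (median 0.38) but 6 higher at E10.5 (median -0.16). Of the 10 mitochondria-specific small subunit genes 9 were higher at E11.5 (median 0.39) and 8 at E10.5 (median 0.32), with 7 higher at both and none lower at both. No gene of any of these groups passed in either comparison, and the difference between groups of proteins was not tested.

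**Figure D4:**
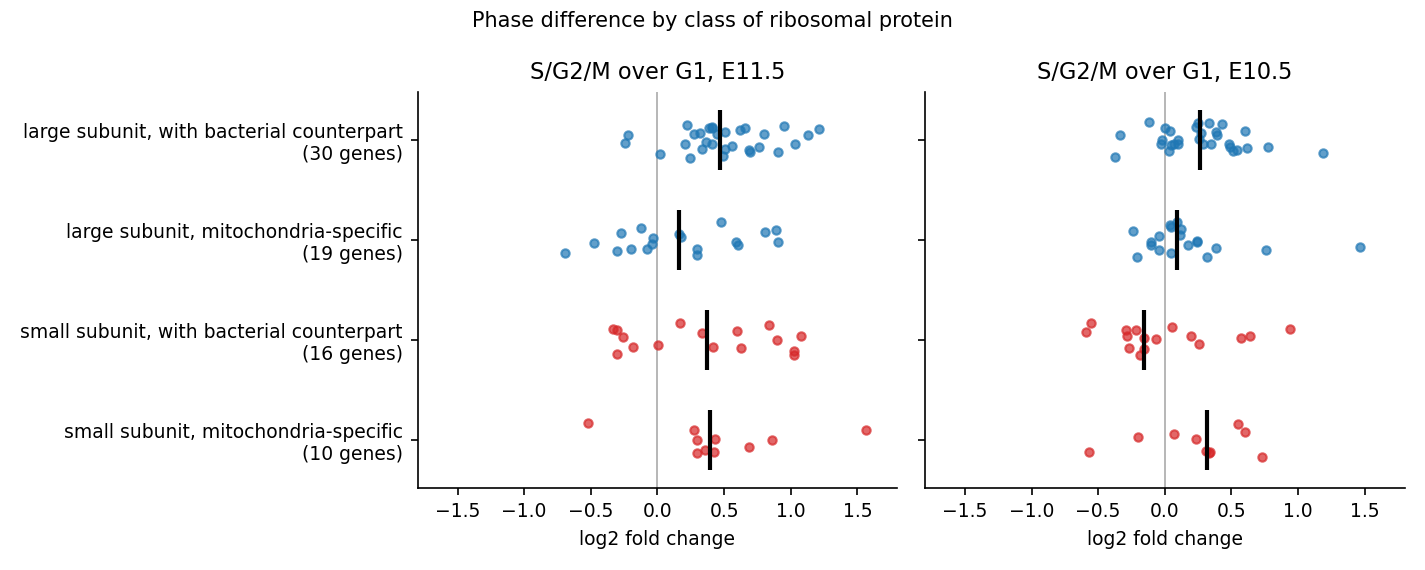
Log2 fold change of S/G2/M over G1 at E11.5 (left) and E10.5 (right), each point a gene, by class of protein, with the class median as a black bar. Large subunit proteins with a bacterial counterpart sit mostly right of 0 at both ages (medians 0.47 and 0.26), and the small subunit class with a bacterial counterpart is split at E10.5 (median -0.16).

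Within the large subunit, 4 genes of the stalk were measured. Mrpl10, which anchors the stalk, had 26.0 FPKM in S/G2/M and 22.3 FPKM in G1 cells at E11.5 and 22.7 and 16.1 FPKM at E10.5. Mrpl11, at the base of the stalk, had 17.3 and 13.2 FPKM in S/G2/M and G1 cells at E11.5 and 20.9 and 17.8 FPKM at E10.5. Both were thus higher in S/G2/M cells at both ages but by less than Mrpl12, whose protein stands on Mrpl10 in several copies. The other stalk gene, Mrpl54, had 49.0 and 53.3 FPKM in S/G2/M and G1 cells at E11.5 and 65.6 and 58.1 FPKM at E10.5, lower and then higher in S/G2/M cells. Of the 9 genes of the exit tunnel 8 were higher in S/G2/M cells at E11.5 and 6 at E10.5. Of the 7 genes of the central protuberance 3 were higher at E11.5 and 5 at E10.5. Mrpl44, at the tunnel exit, had 19.8 and 10.7 FPKM in S/G2/M and G1 cells at E11.5 and 12.6 and 12.2 FPKM at E10.5. Mrpl45 had 9.74 and 11.8 FPKM in S/G2/M and G1 cells at E11.5 and 10.6 and 10.97 FPKM at E10.5. Mrpl3, beside the peptidyl transferase centre, was lower at E11.5, with 23.4 FPKM in S/G2/M and 27.6 FPKM in G1 cells, and higher at E10.5, with 32.6 FPKM in S/G2/M and 21.4 FPKM in G1 cells. Mutations of human MRPL3 and MRPL44 cause combined deficiencies of oxidative phosphorylation.

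Mammals have 3 paralogs of the bacterial protein behind Mrps18, and each sits at a different place in the ribosome. Mrps18c, which occupies the ancestral site, was the most abundant, with 103 FPKM in E11.5 S/G2/M, 91.7 FPKM in E11.5 G1, 75.8 FPKM in E10.5 S/G2/M and 91.3 FPKM in E10.5 G1 cells. Mrps18a, which is in the large subunit, had 32.1 and 21.1 FPKM in S/G2/M and G1 cells at E11.5 and 24.1 and 23.3 FPKM at E10.5. Mrps18a and Mrps18b, whose values are given above, were both higher in S/G2/M cells at both ages, and neither passed. Mrps22, mutated in a human mitochondrial disease, had 25.6 and 20.0 FPKM in S/G2/M and G1 cells at E11.5 and 27.6 and 22.3 FPKM at E10.5. Mrps36, no longer counted a ribosomal protein, had 39.2 and 43.2 FPKM in S/G2/M and G1 cells at E11.5 and 51.7 and 51.1 FPKM at E10.5. Among the members on rows joined with another gene, Mrps6 (with Slc5a3) had 64.6 and 51.4 FPKM in S/G2/M and G1 cells at E11.5 and 60.2 and 73.6 FPKM at E10.5. Mrps23 (with Cuedc1 and a RIKEN locus) had 23.4 and 19.1 FPKM in S/G2/M and G1 cells at E11.5 and 20.1 and 19.2 FPKM at E10.5. Reads of the joined genes cannot be told apart.

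The other 2 comparisons set E11.5 against E10.5 within a phase and asked what differs with age. In S/G2/M cells 46 of 76 members were higher at E11.5 and 30 lower (median log2 0.09), against 52.1% higher and a median of 0.03 among 12768 genes tested. In G1 cells 29 were higher at E11.5 and 47 lower (median -0.07), against 50.9% higher and a median of 0.02 among 12953 genes tested. No member passed in either phase, against 4.07% of all genes tested in S/G2/M and 4.45% in G1 cells in the authors' deposited tables. With the group values taken from the authors' phase tables instead, 39 members were higher at E11.5 in S/G2/M cells (median 0.03) and 22 in G1 cells (median -0.16). An unadjusted p under 0.05 was given for 1 member in each phase, where the backgrounds were 13.9% and 15.4%. The members' fold changes were grouped more tightly than those of all genes, which include genes of lower level. The middle 50% of their log2 fold changes ran from -0.16 to 0.28 in S/G2/M cells, against -0.41 to 0.51 for all genes, and from -0.32 to 0.10 in G1 cells, against -0.51 to 0.62.

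Mrps26 had the largest age difference in S/G2/M cells, with 50.6 FPKM at E11.5 and 19.9 FPKM at E10.5 in the authors' table of that comparison, where p was 0.01075 and q 0.149 (the authors' deposited table). In G1 cells it had 16.7 FPKM at E11.5 and 28.4 FPKM at E10.5. Its level in E11.5 S/G2/M cells was thus above that of the other 3 groups. The phase difference of Mrps26 at E11.5 and its age difference in S/G2/M cells share those samples, so they are not separate findings. Next in S/G2/M cells came Mrpl2, near the peptidyl transferase centre, with 44.9 FPKM at E11.5 and 26.0 FPKM at E10.5, Mrps24 with 40.3 FPKM at E11.5 and 23.6 FPKM at E10.5, and Mrpl44 with 20.5 FPKM at E11.5 and 12.5 FPKM at E10.5. The lower members at E11.5 were Mrps10 with 22.9 FPKM at E11.5 and 34.2 FPKM at E10.5 and Mrpl55 with 19.6 FPKM at E11.5 and 27.9 FPKM at E10.5. Mrpl39 had 26.1 FPKM at E11.5 and 35.5 FPKM at E10.5, and Mrpl52 had 173 FPKM at E11.5 and 235 FPKM at E10.5.

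In G1 cells Mrpl39, at the exit tunnel, had 18.3 FPKM at E11.5 and 33.3 FPKM at E10.5, with p = 0.0457 and q = 0.309 in the authors' deposited table. Mrpl55 had 8.17 FPKM at E11.5 and 17.5 FPKM at E10.5 (log2 -1.10). Mrps28 had 38.2 FPKM at E11.5 and 72.7 FPKM at E10.5 (log2 -0.93), and Mrpl9 had 13.0 FPKM at E11.5 and 23.8 FPKM at E10.5 (log2 -0.87). Mrpl39 and Mrpl55 were among the 4 lowest values of both age comparisons. Higher at E11.5 in G1 cells were Mrpl41 with 14.5 FPKM at E11.5 and 5.45 FPKM at E10.5 (log2 1.41) and Mrpl46 with 38.2 FPKM at E11.5 and 17.2 FPKM at E10.5 (log2 1.15). Mrps35 had 31.9 FPKM at E11.5 and 18.2 FPKM at E10.5, and Mrpl38 had 23.2 FPKM at E11.5 and 14.3 FPKM at E10.5. At the members' levels the smallest fold that passed was 1.99 in S/G2/M and 2.12 in G1 cells, which Mrps26 exceeded in S/G2/M and Mrpl41, Mrpl46 and Mrpl55 in G1 cells without passing. Mrpl41 and Mrpl55 had mean levels below the band that gave these folds. Mrpl41, Mrpl46, Mrps35, Mrps28 and Mrpl55 are also named above for their phase differences, and those differences share the G1 samples with these.

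The 2 age comparisons share no sample with each other. Between them 19 members were higher at E11.5 in both phases, 20 were lower in both, 27 were higher in S/G2/M cells alone and 10 in G1 cells alone. The 19 are 25% of the members, against 35.8% of the 12190 genes tested in both phases, and 51.3% of the members had the same direction in both, against 67.7% of those genes. At E11.5 the macrophage markers were higher in both phases, with 12 of 15 risen in G1 cells and 8 in S/G2/M cells, while 6 and 7 of 14 mesenchymal markers fell in G1 and S/G2/M cells. In G1 cells 4 neuronal markers fell. The markers of the cluster cells differed with age as well. In S/G2/M cells all 12 were higher at E11.5 and 6 rose, with sums of 883 FPKM at E11.5 and 405 FPKM at E10.5, and in G1 cells 10 were higher and 2 rose, with sums of 928 FPKM at E11.5 and 465 FPKM at E10.5. The part of all these markers in the members' values was not tested.

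**Figure D5:**
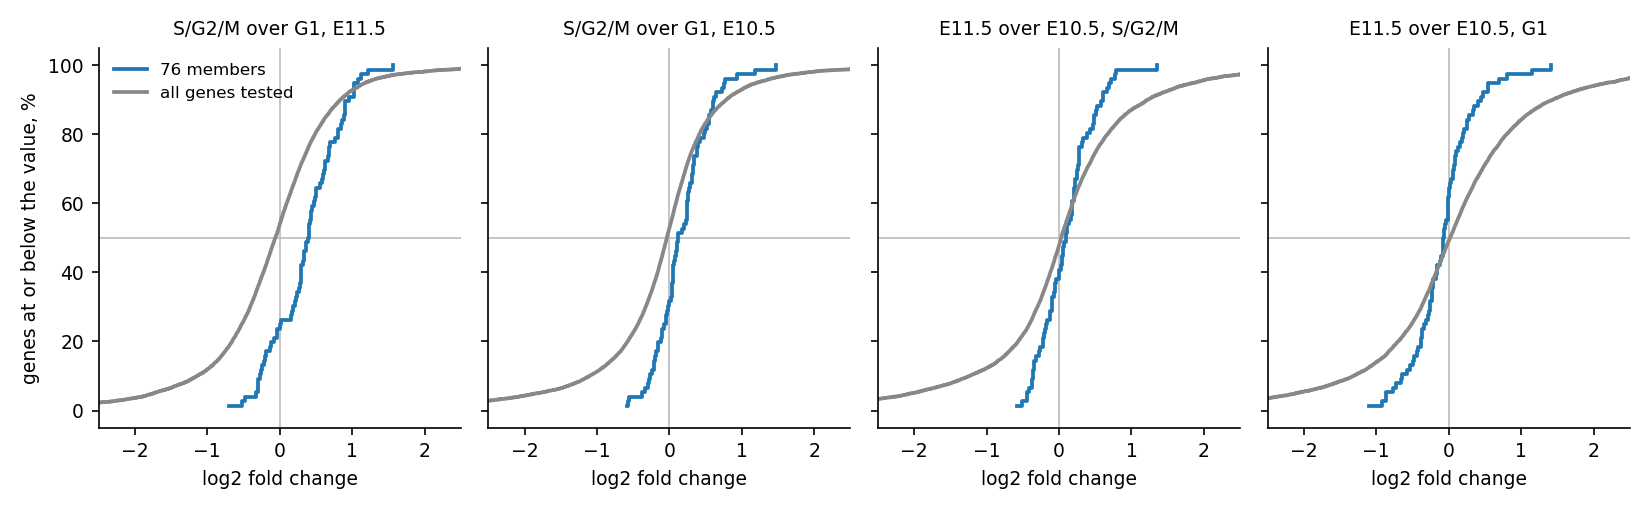
Cumulative share of genes (vertical, in percent) at or below each log2 fold change (horizontal) for the 76 members (blue) and all genes tested by the authors (grey) in the 4 comparisons. The members' curve lies to the right in the phase comparison at E11.5 (medians 0.40 and -0.06), less so at E10.5 (0.12 and -0.04). In both age comparisons it is steeper than the other curve. It crosses that curve right of 0 in S/G2/M cells and left of 0 in G1 cells.

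The other genes that the mitochondrial ribosome needs were examined beside it. The 6 tested mitochondrial ribosomal proteins with other names, such as Chchd1 and Aurkaip1, were all higher in S/G2/M cells at both ages, with median log2 fold changes of 0.46 at each. Aurkaip1 had 70.3 and 39.6 FPKM in S/G2/M and G1 cells at E11.5 and 68.2 and 49.4 FPKM at E10.5. Of 16 mitochondrial translation factors 13 were higher at each age (medians 0.22 at E11.5 and 0.44 at E10.5). Slirp, the most abundant of them, had 160 and 138 FPKM in S/G2/M and G1 cells at E11.5 and 184 and 160 FPKM at E10.5. Tufm, the elongation factor that delivers transfer RNA, had 54.9 and 35.2 FPKM in S/G2/M and G1 cells at E11.5 and 43.1 and 36.9 FPKM at E10.5. Of 21 factors that assemble the ribosome or modify its RNA 18 were higher at E11.5 (median 0.74) and 16 at E10.5 (median 0.41). Malsu1, the most abundant of them, was lower in S/G2/M cells at E11.5, with 59.5 and 73.7 FPKM in S/G2/M and G1 cells. At E10.5 Malsu1 was higher, with 98.4 and 70.5 FPKM. Noa1, an assembly GTPase, had 35.9 and 20.0 FPKM in S/G2/M and G1 cells at E11.5 but 21.6 and 26.1 FPKM at E10.5. Of 16 mitochondrial aminoacyl-tRNA synthetases 11 and 10 were higher at E11.5 and E10.5, and of 14 genes for transcription and maintenance of mitochondrial DNA 11 and 10. No gene of these 5 lists passed in any of the 4 comparisons. In the phase comparisons unadjusted p under 0.05 was given for 2 assembly factors and 2 synthetases at E11.5 and 1 assembly factor at E10.5 in the authors' deposited tables. Messages of the mitochondrial genome itself were not analysed here.

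Of the regulators of nuclear genes for mitochondrial proteins, Myc rose with age in S/G2/M cells, with 157 FPKM at E11.5 and 73.5 FPKM at E10.5 and q = 0.00971 in the authors' deposited table. It was the 1 gene of the list of 10 that passed in any comparison. Between phases Myc had 152 FPKM in S/G2/M and 97.8 FPKM in G1 cells at E11.5 and 74.4 FPKM in S/G2/M and 63.1 FPKM in G1 cells at E10.5, and did not pass. The largest phase difference of the list at E11.5 was that of Mycn, with 29.5 FPKM in S/G2/M and 12.9 FPKM in G1 cells. It had p = 0.01225 and q = 0.353 in the authors' deposited table. At E10.5 Mycn had 29.0 FPKM in S/G2/M and 20.9 FPKM in G1 cells, and it passed at neither age. Gabpb1, a subunit of the ETS factor GABP, had 33.9 and 30.0 FPKM in S/G2/M and G1 cells at E11.5 and 32.0 and 30.1 FPKM at E10.5.

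At E11.5 a shift of the same direction was found in 2 larger sets. Of 82 tested genes of the cytosolic ribosome 81 were higher in S/G2/M cells at E11.5 (median 0.31), and 76 of 81 at E10.5 (median 0.11). Of 79 nuclear genes of oxidative phosphorylation 67 were higher at E11.5 (median 0.27), and 41 of 78 at E10.5 (median 0.01). Among all genes tested 46% were higher at E11.5 and 47.1% at E10.5. The oxidative phosphorylation genes thus lay near all genes at E10.5. Between the ages in G1 cells, 18 of 82 genes of the cytosolic ribosome and 22 of 78 of oxidative phosphorylation were higher at E11.5, against 50.9% of all genes tested. In these sets and in the mitochondrial ribosomal genes the median phase difference was larger at E11.5 than at E10.5. None of the genes of the other sets passed between phases. Many genes of the cytosolic ribosome have near-identical pseudogenes that can share their reads, so their values are uncertain. At E11.5 an unadjusted p under 0.05 was given for 1 gene of the cytosolic ribosome and 2 of oxidative phosphorylation in the authors' deposited table, and at E10.5 for none of either. The mitochondrial ribosomal genes were not tested against these sets.

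The head-to-head neighbours had the direction of their member in about as many pairs as not. Of 17 neighbours tested at E11.5 8 had the direction of their member between phases, and 10 of 19 at E10.5, and none passed. Sars2, the mitochondrial seryl-tRNA synthetase, starts 172 bases from Mrps12 and had 8.13 and 6.06 FPKM in S/G2/M and G1 cells at E11.5 and 6.26 and 3.32 FPKM at E10.5, higher in S/G2/M cells like Mrps12. Ppp1r10, a regulator of protein phosphatase, starts 45 bases from Mrps18b and had 20.2 and 27.1 FPKM in S/G2/M and G1 cells at E11.5 and 26.8 and 31.2 FPKM at E10.5, opposite to Mrps18b. Mrps11 and Mrpl46 are both members and are not counted among the 19 because their annotated starts overlap further. They lie head to head, with 41 bases between the loci in the authors' files, and reads near their starts may be split between them. Mrps11 had 20.3 and 24.99 FPKM in S/G2/M and G1 cells at E11.5 and 26.6 and 22.2 FPKM at E10.5, lower and then higher in S/G2/M cells, as Mrpl46 was.

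The phase differences of members with and without a motif in the promoter window were set side by side. At E11.5 the 13 genes with the NRF1 motif had a median log2 fold change of 0.56 and the 54 without it 0.33, but at E10.5 the medians were 0.04 and 0.16. For the ETS motif the medians of the 23 genes with it were 0.43 at E11.5 and 0.24 at E10.5, against 0.33 and 0.06 for the 44 without it. For the YY1 motif those of the 12 with it were 0.33 and 0.07, against 0.39 and 0.12 for the 55 without it. For NRF1 the order of the medians differed between the ages, and none of these differences was tested.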

How the data were processed

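RNA of 12 samples, 3 in each of 4 groups, had been sequenced as paired reads of 100 bases. Per the labels' protocols, reads were trimmed, masked for low quality and mapped with bowtie 0.12.2 to mm8. The submitters' processing notes instead name CASAVA 1.4, TopHat, Cuffdiff and mm10, with no role or order. The loci of all 76 members overlap the GENCODE M21 (mm10) gene of the same symbol, and 7 run over 5000 bases beyond it. Deposited starts count from 0 and are printed counting from 1. Strandedness and read totals are not given in the sources used here, so the depth is unknown.

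The authors deposited 6 gene tables, which per the file headers hold 1 FPKM per group. They also hold the authors' p-value and q-value for each gene, with a smallest p-value of 5e-05. No source used here says whether that test kept the samples of a group apart. The design foresaw a test of single samples where files held them, and the tables used here hold group values. Calls therefore rest on the authors' q-values under 0.05, over all genes they tested.

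A fold change is the FPKM of the first-named group over that of the other, computed here with no pseudocount, and its log2 differs from the authors' deposited log2 fold change by at most 2.78e-05. Phase results come from the authors' tables of phases and age results from their tables of ages. The same group differed between these tables by at most 1.05-fold for any member. Promoter windows are those of RefSeq (GRCm38.p6), the first per gene. The calculation of counts and medians was tested on simulated data with set shifts and calls. That check does not bear on the authors' test or on the error of a fold change.

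The members, the lists and the classes of proteins were chosen with earlier results of these data known. The rule for named members took those that passed, the 4 largest positive and 4 largest negative differences per comparison, the 6 highest and 4 lowest mean levels, those on joined rows, and 13 genes by role. Mrps11, Mycn and the head-to-head neighbours were chosen after their values were seen. In other lists the rule named those that passed or, where none did, the most abundant. For some lists and comparisons only counts are given. Alternatives were other thresholds, level minimums of 1 and 5 FPKM, a pseudocount of 1, median centring, values from the other tables, and members free of joined names or overlapping genes. Python 3.11.15, numpy 2.4.6, pandas 2.3.3, scipy 1.17.1 and matplotlib 3.10.9 were used.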

Additional observations from a re-analysis of the deposited data

How the results depend on the processing

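No member passed in any comparison under any of the 30 alternatives that bear on calls. Most of these were stricter rules or parts of the same rows and could only return none again. Only the threshold of 0.085 on the q-value and the phase tables in the other order could have added calls. The median log2 fold change of the members kept its sign in all 34 alternatives run. The level minimums and the setting that admitted any status kept all 76 members, so they only repeat the main values. It ranged from 0.37 to 0.46 for S/G2/M over G1 at E11.5, from 0.11 to 0.17 at E10.5, from 0.03 to 0.09 for E11.5 over E10.5 in S/G2/M cells and from -0.16 to -0.07 in G1 cells. The number of members higher stayed within 1.5 times of the reported one in 33 of 34. The exception was E11.5 against E10.5 in G1 cells among the 57 members that overlap no other coding gene, where 18 were higher, against 29 of 76. That alternative has fewer members by construction, and it was chosen after seeing the data.

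The 4 comparisons rest on group values without depth or spread, so the error of a single fold change is unknown, and the smallest fold that passed at a given level is an observed value and no limit of detection. No paired analysis was possible because the tables hold 1 value per group and no column of a single sample. Leaving out each replicate was not run for the same reason.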
